A study of Danio rerio with 4 samples.

Results

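Trimethylation of lysine 4 of histone H3 (H3K4me3) was mapped by ChIP-seq in amputated zebrafish ventricles, and a set of 2108 wide peaks found only in DN hearts was examined. They were DN peaks at least 1000 bp and under 3000 bp wide on chromosomes 1 to 25 that overlapped no Ctrl peak and whose nearest Ctrl peak was at least 1000 bp but under 50 kb away, with chromosome 4 left out from position 27000000 on. The members were thus chosen by their measured width, overlap and gap in the peak lists, and everything taken from these lists is given as a description without a test. The set made up 6.04% of the 34889 DN peaks (95% exact binomial interval 5.79 to 6.30). All intervals given here reflect counting error alone, because peaks do not replicate a condition.

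Fish of both groups were transgenic for ubi:loxp-DsRed-STOP-loxp-DN-xBrg1, a switchable construct for a dominant-negative form of Xenopus Brg1, and both were given 4-HT (4-hydroxytamoxifen), which the labels place over 3 days ahead of amputation. DN fish also carried kdrl:CreER, which switches the construct on in endothelial cells, whereas their Ctrl siblings had no CreER. Adult ventricles were taken at 7 days post-amputation (dpa), with a pool of about 25 hearts behind each ChIP. Each group gave 1 H3K4me3 library and 1 input library, and only the H3K4me3 peak lists were used. Whole ventricles were processed, of which endothelial cells make up only a part. A change in the number of cells with the mark cannot be told apart from a change in mark per cell. With 1 library per group, none of the differences has a replicate check.

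H3K4me3 is written by methyltransferase complexes of the MLL/SET1 family and is removed by lysine demethylases. It marks nucleosomes around active transcription start sites, where it typically forms well-defined peaks, and it is weak elsewhere. Brg1 is the ATPase of the SWI/SNF complex, which moves and evicts nucleosomes and has been linked to both activation and repression of genes. Which genes, start sites or sequences lie at the peaks described here was not analysed, and neither were endothelial or heart marker genes, so peaks are named by their GRCz11 position (1-based).

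Wide peaks found only in DN were a minority of the wide peaks of the DN list. Of 7842 DN peaks of the same widths in the same part of the genome, 2108 belonged to the set, which is 26.9% (95% interval 25.9 to 27.9), and 5149 were shared with Ctrl, which is 65.7% (95% interval 64.6 to 66.7). The other DN-only peaks of these widths were 241 peaks under 1000 bp from a Ctrl peak and 344 peaks at least 50 kb from one. DN-only peaks made up 34.3% of DN peaks of these widths, against 68.7% of the 33972 DN peaks of all widths. Of those 33972 peaks, 88.7% overlapped a Ctrl peak or had one under 50 kb away, and 17983 were DN-only at the gaps of the rule. Of the 17983 DN-only peaks of any width that were at least 1000 bp and under 50 kb from a Ctrl peak, 15826 were narrower than 1000 bp, which is 88.0% (95% interval 87.5 to 88.5), and 49 were 3000 bp or wider. The set covered 3.03 Mb, which was 22.4% of the 13.5 Mb covered by all DN-only peaks, and it held 9.04% of their number. The lower width limit of the rule favours a larger share of length than of number.

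Within the allowed range, wide DN-only peaks lay near the lower limit of width. Their median width was 1302 bp (95% interval 1285 to 1322), against 1620 bp for shared peaks (95% interval 1596 to 1644). Of the set, 1442 peaks were under 1500 bp wide, 423 were 1500 to under 2000 bp and 243 were at least 2000 bp. The share of DN peaks that belonged to the set was 36.3% under 1500 bp (95% interval 34.8 to 37.8), 20.5% at 1500 to under 2000 bp (95% interval 18.8 to 22.3) and 13.4% at 2000 bp and more (95% interval 11.9 to 15.1). The 3 widest members lay on chromosome 1 from 45961547 to 45964540 (2994 bp), on chromosome 5 from 69783266 to 69786232 (2967 bp) and on chromosome 7 from 29114693 to 29117659 (2967 bp). Their −log10 q was 1.94, 2.05 and 3.37 in that order, against a median of 2.05 in the set. The q-value is the authors' peak caller's measure of how far the signal stands over the genome-wide background, averaged over the peak.

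The peaks next to each limit of the rule, inside and outside, had the following values. A member of the smallest width, 1000 bp on chromosome 7 from 18711525 to 18712524, had a −log10 q of 1.801. A DN-only peak of 999 bp on chromosome 1 from 51718177 to 51719175, left out for its width, had 2.07. The narrowest peak left out for being too wide, 3013 bp on chromosome 6 from 3306511 to 3309523, had 1.68. At the limits of the gap, the nearest member (gap 1000 bp) had a −log10 q of 3.03 and the nearest peak left out (gap 996 bp, chromosome 18 from 21953559 to 21954944) had 2.15. The farthest member (gap 49805 bp) had 2.45, and the next peak beyond the limit (gap 50049 bp, chromosome 8 from 47327787 to 47329561) had 3.19.

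The strength of the wide DN-only peaks was then ranked within the DN list, in which a percentile of 50 is the middle of all DN peaks. Their median percentile by −log10 q was 49.7 (95% interval 48.3 to 50.9), and shared peaks of the same widths had a median percentile of 85.2 (95% interval 84.7 to 85.6). In −log10 q the medians were 2.05 in the set and 4.87 in shared peaks, and in fold over background they were 3.30 and 4.58. The middle 50% of the set lay between a −log10 q of 1.66 and 2.902, and the middle 50% of shared peaks between 3.19 and 6.93. A −log10 q of at least 4, the level of the 0.0001 given to the peak caller, was reached by 208 members, which is 9.87% (95% interval 8.63 to 11.2), and by 3263 shared peaks, which is 63.4% (95% interval 62.0 to 64.7). Over all DN peaks of these widths the share was 45.0%, and over DN peaks of all widths 20.3%. The listed −log10 q goes down to 1.31 in DN and 1.20 in Ctrl, so 4 was not the lower limit of either list. Only 39 members, or 1.85%, were in the strongest 10% of the DN list, against 1811 shared peaks, or 35.2%. As overlap with Ctrl is part of the rule and strong peaks are more often shared, this difference is a description of the set.

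**Figure D1:**
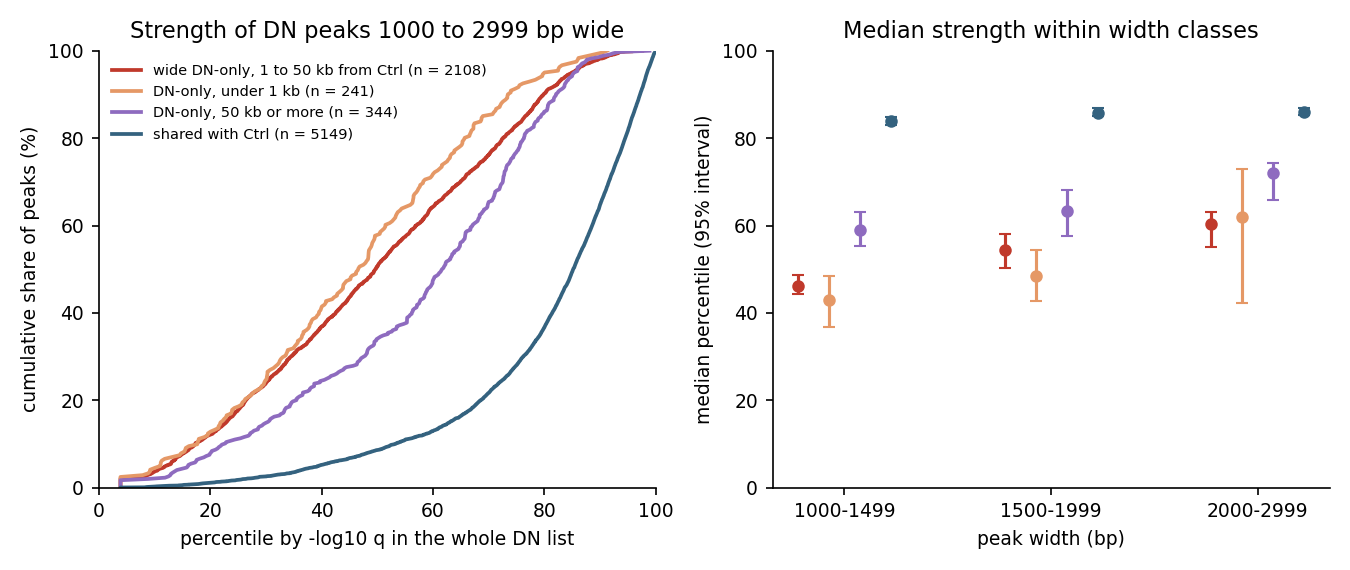
Left, cumulative share of DN peaks 1000 to under 3000 bp wide (y axis, percent) against their percentile by −log10 q in the whole DN list (x axis) for 4 groups of peaks. Right, median percentile in 3 width classes, with exact 95% intervals as bars. The wide DN-only peaks (red) had a median percentile of 49.7 against 85.2 for shared peaks (blue), and they lay below shared peaks in each width class.

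The lower rank of the set was also seen among peaks of like width. Under 1500 bp the median percentile was 46.1 in the set and 84.0 in shared peaks. It was 54.4 and 85.8 at 1500 to under 2000 bp, and 60.5 and 86.1 at 2000 bp and more. Wider members thus ranked higher than narrower ones, while the rank of shared peaks differed by little over the same widths. This contrast was less clear in −log10 q. From the narrowest to the widest class, the median −log10 q went from 1.961 to 2.42 in the set. In shared peaks it went from 4.66 to 5.05. The ranks therefore do not show that strength followed width in the set alone. Ranked only among DN peaks of these widths, the medians were 22.3 in the set and 65.5 in shared peaks. Compared with other DN-only peaks of these widths, the set was close to the peaks under 1000 bp from Ctrl, with a median percentile of 49.7 against 46.6 (95% interval 42.2 to 49.5). It was below the peaks at least 50 kb from Ctrl, with a median of 61.7 (95% interval 58.7 to 64.9). Narrower DN-only peaks at the same gaps ranked lower, with a median percentile of 34.9.

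The same pattern can be read as the makeup of wide DN peaks by strength. In the weakest 20% of the DN list, 256 of 372 peaks of these widths belonged to the set, which is 68.8% (95% interval 63.8 to 73.5). The share was 60.8% between the 20 and 40 percentiles, 51.1% between 40 and 60 and 27.9% between 60 and 80. In the strongest 20%, 208 of 3526 belonged to the set, which is 5.90% (95% interval 5.14 to 6.73), and 92.4% were shared.

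**Figure D2:**
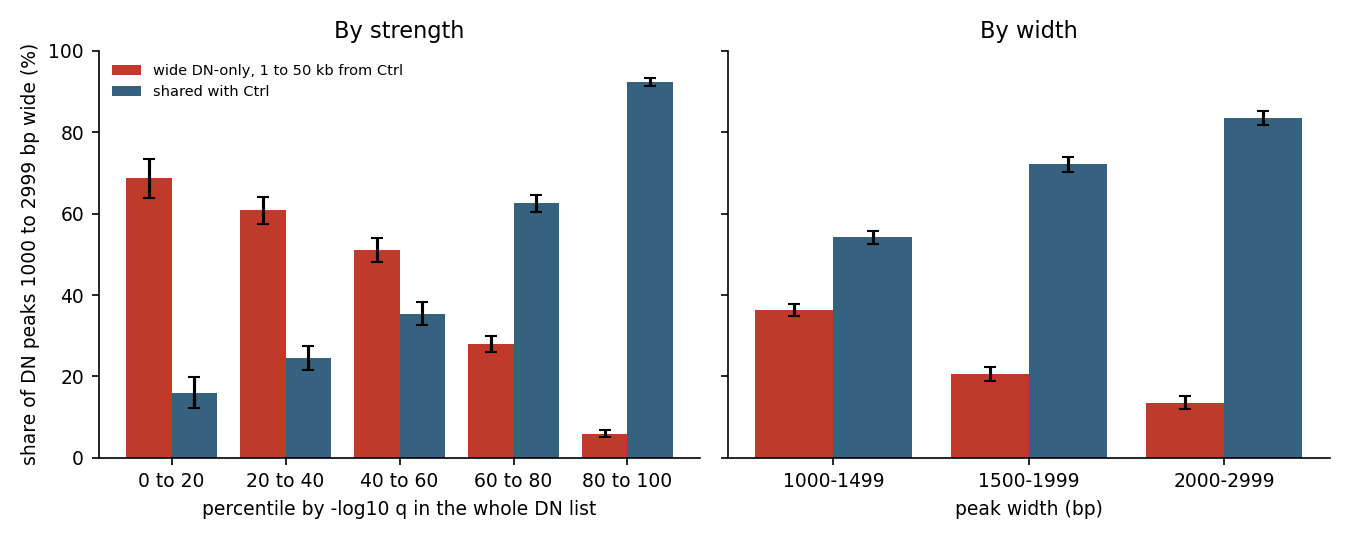
Share of DN peaks 1000 to under 3000 bp wide (y axis, percent) that were wide DN-only peaks 1 to 50 kb from Ctrl (red) or shared with Ctrl (blue), by percentile in the DN list (left) and by width in bp (right). Bars carry exact 95% intervals. The share of the set was 68.8% in the weakest 20% of the list and 5.90% in the strongest 20%, and it was lower for wider peaks.

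The listed fold can be converted to a mean number of fragments over a peak, since the caller divides the depth plus 1 by the background plus 1. Under this formula the lowest listed values correspond to 7 fragments in DN, at a background of 1.79 fragments, and to 8 fragments in Ctrl. The median member had a mean depth of 8.20 fragments (95% interval 8.16 to 8.26), and the median shared peak had 11.8 (95% interval 11.7 to 11.9). From the narrowest to the widest width class, this median went from 8.08 to 8.73 in the set and from 11.56 to 11.93 in shared peaks. A mean depth under 8 fragments, below the lowest depth of the Ctrl list, was found for 892 members, or 42.3% (95% interval 40.2 to 44.5), and for 334 shared peaks, or 6.49% (95% interval 5.83 to 7.19). The other 1216 members reached at least 8 fragments. That share, 57.7%, compares with 56.2% of all DN peaks and 81.8% of DN peaks of these widths. How far the lower limit of the DN call accounts for the number of members was not tested. The Ctrl list has no row at any member, so a signal just under its limit cannot be told apart from no signal, and no fold between DN and Ctrl can be given.

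A small number of members were strong. The strongest lay on chromosome 15 from 47863921 to 47865068, with a fold of 6.49, a −log10 q of 9.71 and a mean depth of 17.1 fragments, which placed it at the 97.5 percentile of the DN list. Its nearest Ctrl peak, 244 bp wide and 3.19 kb away, had a −log10 q of only 1.48 in the Ctrl list and overlapped no DN peak. The next member lay on chromosome 5 from 71897107 to 71898708, with a fold of 5.82 and a −log10 q of 8.31, and was 7.74 kb from a Ctrl peak. It was followed by a peak on chromosome 1 from 40263263 to 40264459, with a fold of 6.002 and a −log10 q of 8.27, and a gap of 25.6 kb. The fourth lay on chromosome 10 from 41906012 to 41907074, with a fold of 5.95, a −log10 q of 8.24 and a gap of 5.79 kb. The fifth lay on chromosome 25 from 12494158 to 12495157, with a fold of 5.74, a −log10 q of 7.56 and a gap of 21.9 kb. These 5 peaks ranked at or above the 94.5 percentile of the DN list, and 4 of them were under 1500 bp wide. Those on chromosomes 15 and 5 lay within 2 Mb of the last listed peak of their chromosome, at 47.96 and 72.42 Mb. Among all members, 13.6% lay that close to a chromosome start or last listed peak. For each of the 5 strongest peaks, the nearest Ctrl peak ranked lower in its own list, between the 21.8 and the 71.0 percentile. Picking the strongest members favours this order. The nearest Ctrl peaks of all members had a median percentile of 53.9.

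The gaps between wide DN-only peaks and Ctrl peaks were spread over the range that the rule allows. The median gap was 6.31 kb (95% interval 5.84 to 6.86), and the middle 50% lay between 2.63 and 16.7 kb. Of the set, 339 peaks lay 1 to 2 kb from a Ctrl peak, 577 lay 2 to 5 kb, 369 lay 5 to 10 kb, 393 lay 10 to 20 kb and 430 lay 20 to 50 kb from one. The narrower DN-only peaks within the same limits had a median gap of 8.22 kb. The smallest gaps were 1000 bp on chromosome 8 (47803964 to 47805191), 1005 bp on chromosome 16 (43346421 to 43348222) and 1006 bp on chromosome 14 (25574172 to 25575652). The largest were 49.8 kb on chromosome 16 (9450859 to 9453537), 49.5 kb on the same chromosome (18535643 to 18536921) and 49.5 kb on chromosome 9 (41460041 to 41461547). The last of these was among the stronger members, with a −log10 q of 5.59.

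Members farther from Ctrl peaks ranked higher in the DN list. The median percentile was 44.8 (95% interval 42.6 to 47.3) for gaps of 1 to 2 kb, 45.8 (95% interval 43.4 to 48.8) for 2 to 5 kb and 50.2 (95% interval 45.4 to 53.9) for 5 to 10 kb. It was 52.0 (95% interval 48.2 to 55.9) for 10 to 20 kb and 59.6 (95% interval 56.7 to 63.5) for 20 to 50 kb. A −log10 q of at least 4 was reached by 15 of 339 members at 1 to 2 kb, which is 4.42% (95% interval 2.50 to 7.19), and by 71 of 430 members at 20 to 50 kb, which is 16.5% (95% interval 13.1 to 20.4). Median width did not follow the gap, at 1310 bp in both of these bins. In each of the 3 width classes the median percentile was higher at 20 to 50 kb than at 1 to 2 kb. It was 65.0 against 46.7 in the middle class and 65.8 against 53.1 in the widest. The rise was not even. In the narrowest class, which held most members, the medians from the smallest to the largest gaps were 43.1, 44.3, 46.9, 44.4 and 55.9. In the middle class the median was 44.6 at 2 to 5 kb.

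**Figure D3:**
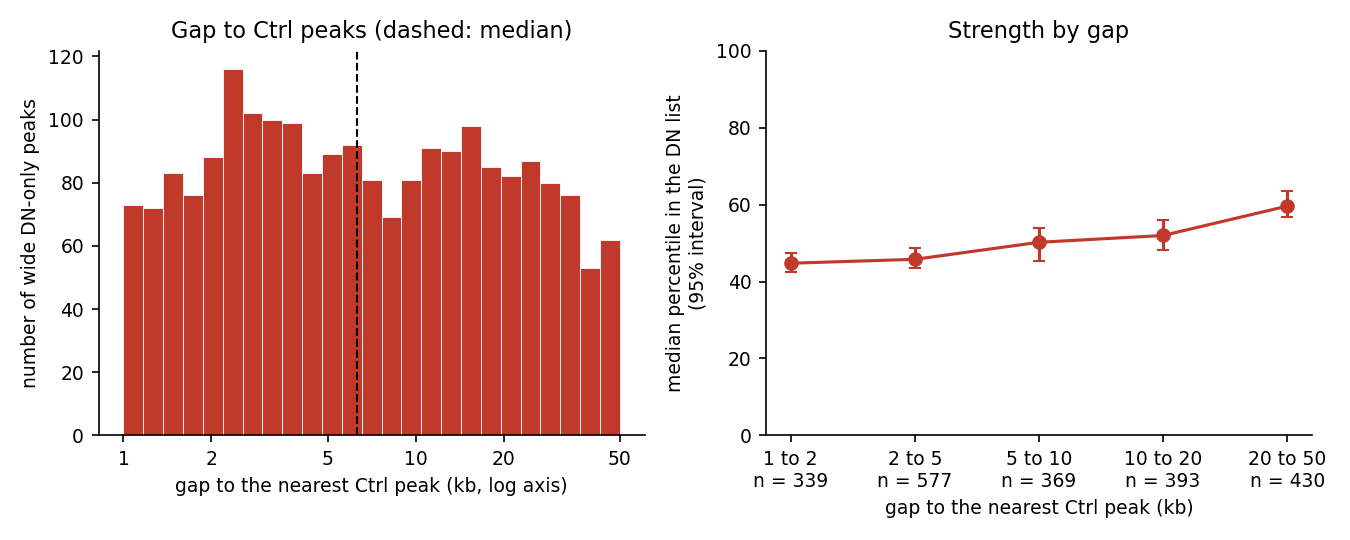
Left, number of wide DN-only peaks (y axis) by the gap to the nearest Ctrl peak in kb (x axis, log scale), with the median of 6.31 kb dashed. Right, median percentile in the DN list by gap, with exact 95% intervals and the number of peaks in each bin. The median percentile was 44.8 at gaps of 1 to 2 kb and 59.6 at 20 to 50 kb.

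Most members lay next to Ctrl peaks that were also found in DN. The nearest Ctrl peak overlapped a DN peak for 1650 members, which is 78.3% (95% interval 76.5 to 80.0), against 67.0% of all Ctrl peaks. These nearest Ctrl peaks had a median width of 574 bp, against 505 bp over all Ctrl peaks, and a median percentile of 53.9 in the Ctrl list. Values over all Ctrl peaks include those on the left-out part of chromosome 4, where the rule allows no member. A total of 242 members, or 11.5%, had a nearest Ctrl peak whose −log10 q was 4 or more, close to the 10.2% of all Ctrl peaks at that level, and 585 members, or 27.8% (95% interval 25.8 to 29.7), had any such Ctrl peak under 50 kb away. Among shared peaks of the same widths the share was 31.8% (95% interval 30.5 to 33.1), the peak's own Ctrl partner included, and over all DN peaks of these widths it was 29.2%. Measured only to Ctrl peaks that reached a −log10 q of 4, the median gap of the set was 162 kb. A Ctrl peak from the stronger 50% of the Ctrl list lay under 50 kb away from 1726 members, which is 81.9% (95% interval 80.2 to 83.5), against 88.8% of shared peaks (95% interval 87.9 to 89.7), again with the partner included.

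Ctrl peaks lay under 50 kb away on both sides of 1134 members, which is 53.8% (95% interval 51.6 to 55.9), and the nearest was on the side of lower coordinates for 49.2% (95% interval 47.0 to 51.4). For those with Ctrl peaks on both sides, the median gap was 4.35 kb to the nearer and 19.7 kb to the farther one. The set fell into 1791 of the 17209 intervals between neighbouring Ctrl peaks, and 8 members lay outside any such interval. The 17209 include intervals on the left-out part of chromosome 4, where the rule allows no member. An interval held 1 member in 1544 cases, 2 members in 199 and at least 3 in 48. These intervals had a median length of 57.1 kb. The nearest Ctrl peaks of the 2108 members were 1823 different peaks, so members were not gathered around a few Ctrl peaks.

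Distances to other DN peaks were measured next. The nearest other DN peak was closer than the nearest Ctrl peak for 1870 members, which is 88.7% (95% interval 87.28 to 90.03). The rule favours this order, since it keeps Ctrl peaks at least 1000 bp away, and the DN list is the longer one, with 34889 peaks against 17234 in the Ctrl list. The median distance to the nearest other DN peak was 1966 bp (95% interval 1839 to 2100), similar to the 2028 bp for shared peaks (95% interval 1936 to 2121). For 496 members, or 23.5% (95% interval 21.7 to 25.4), another DN peak lay under 1000 bp away, against 25.5% of shared peaks and 25.8% of all DN peaks of these widths. Peaks of 1 list are never less than 601 bp apart. The nearest shared DN peak of any width was farther, at a median of 8.17 kb. Within 50 kb, a member had a mean of 8.51 other DN peaks and a shared peak had 6.72. For the other DN-only peaks of these widths this mean was 9.84 under 1000 bp from Ctrl and 2.50 at least 50 kb from Ctrl. The mean number of Ctrl peaks was 3.67 for a member and 4.09 for a shared peak, where the rule requires at least 1 for a member and the overlapping partner counts for a shared peak.

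Most members, 1677 of 2108, had no other member within 10 kb. Another member lay within 10 kb of 431 members, which is 20.4% (95% interval 18.7 to 22.2). Among shared peaks of the same widths, 1194 had another shared peak of these widths within 10 kb, which is 23.2% (95% interval 22.0 to 24.4), and over all DN peaks of these widths 38.3% had another of any kind. Shared peaks were the larger group (5149 against 2108), which by itself raises their share. The shares therefore do not show which group was more clustered for its number. At 5 kb the shares were 12.5% and 15.9%, and at 25 kb they were 33.3% and 37.9%. Any DN-only peak, of any width, lay within 10 kb of 76.3% of members. That share was not worked out for other peaks, and DN-only peaks were 68.7% of DN peaks of all widths. It therefore does not show that members had more such neighbours than other DN peaks. Among members with a mean depth of at least 8 fragments, 10.4% had another such member within 10 kb, against 19.6% of shared peaks of that depth. Here too the groups differed in size, at 1216 members and 4815 shared peaks.

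Joined at 10 kb, the set formed 196 chains of 2 or more members, of which 167 were pairs, 23 were triples and 6 held at least 4. Within 2 Mb of the start of chromosome 15, the largest chain held 7 members from 716657 to 749935, a span of 33.3 kb. Their −log10 q was 1.61, 1.37, 2.05, 2.29, 2.14, 1.85 and 2.03 in order of position, and none reached the 60 percentile of the DN list. All 7 lay in a single interval of 57.9 kb between a Ctrl peak of 243 bp (702794 to 703036, −log10 q 1.38) and one of 823 bp (760983 to 761805, −log10 q 1.402). The same interval held 8 other DN peaks, which makes 15 in all. It holds no Ctrl peak by definition, and its length is close to the median of 57.1 kb for intervals with members. Mean depth in the 7 members ranged from 7.11 to 8.60 fragments. The 7 members covered 11.4 kb, and neighbouring members were 625 to 9254 bp apart.

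**Figure D4:**
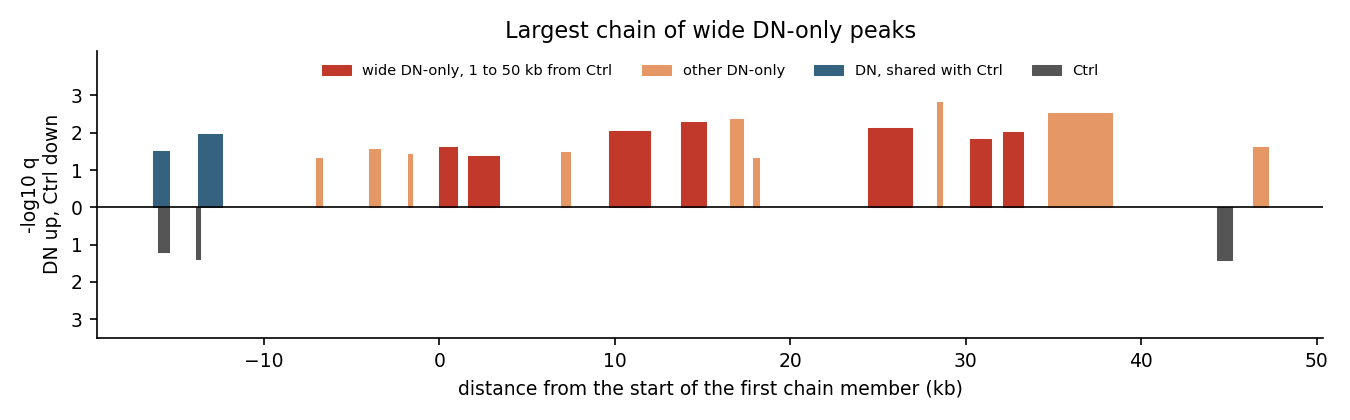
The largest chain of wide DN-only peaks, with distance in kb from the start of its first member (x axis) and −log10 q in each peak's own list (y axis). DN peaks point up and Ctrl peaks point down, in the colours named in the legend. The 7 members (red) had a −log10 q of 1.37 to 2.29, with other DN-only peaks between them. The interval of 57.9 kb is bounded by neighbouring Ctrl peaks, so it holds none by definition.

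The set was found on all 25 chromosomes. The number of members ranged from 29 on chromosome 24 to 159 on chromosome 3, and the density from 0.69 per Mb on chromosome 24 to 3.63 per Mb on chromosome 22, with the last listed peak taken as the end of a chromosome. Relative to DN peaks of the same widths, the share of the set was highest on chromosome 19, with 109 of 324 peaks or 33.6% (95% interval 28.5 to 39.1). It was lowest on chromosome 24, with 29 of 165 peaks or 17.6% (95% interval 12.1 to 24.3). The median over chromosomes was 26.8%. The interval held the overall share of 26.9% on 16 chromosomes. It lay above it on chromosomes 3, 10, 19 and 22 and below it on chromosomes 1, 11, 13, 17 and 24. These 25 intervals were not adjusted for their number.

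The share of shared peaks ranged from 58.6% on chromosome 22 to 75.1% on the part of chromosome 4 that was kept, where 36 of 177 DN peaks belonged to the set. Chromosome 22 was also the most densely marked in Ctrl, with 21.5 Ctrl peaks per Mb, and its 142 members had the smallest median gap, 3.64 kb. Counted per 100 DN peaks of all widths, chromosome 22 had the most members (8.42) and chromosome 24 the fewest (3.66). The same chromosomes were at the ends per 100 Ctrl peaks, at 16.9 and 7.44. The rule was also applied anew to the stronger 50% of each list, where DN peaks that overlapped only a weaker Ctrl peak counted as DN-only. This gave 1677 peaks, which are not all members of the set. Their share among DN peaks of these widths was highest on chromosome 22 (45.1%) and lowest on chromosome 24 (19.6%). Among peaks with a mean depth of at least 8 fragments, the share of the set was highest on chromosome 15 (24.6%) and lowest on chromosome 17 (10.5%). The chromosomes at the ends of the order thus depended on the filter. The median percentile of members ranged from 41.6 on chromosome 17 to 57.1 on chromosome 1, and on each chromosome it lay far below the 85.2 of shared peaks over all chromosomes.

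**Figure D5:**
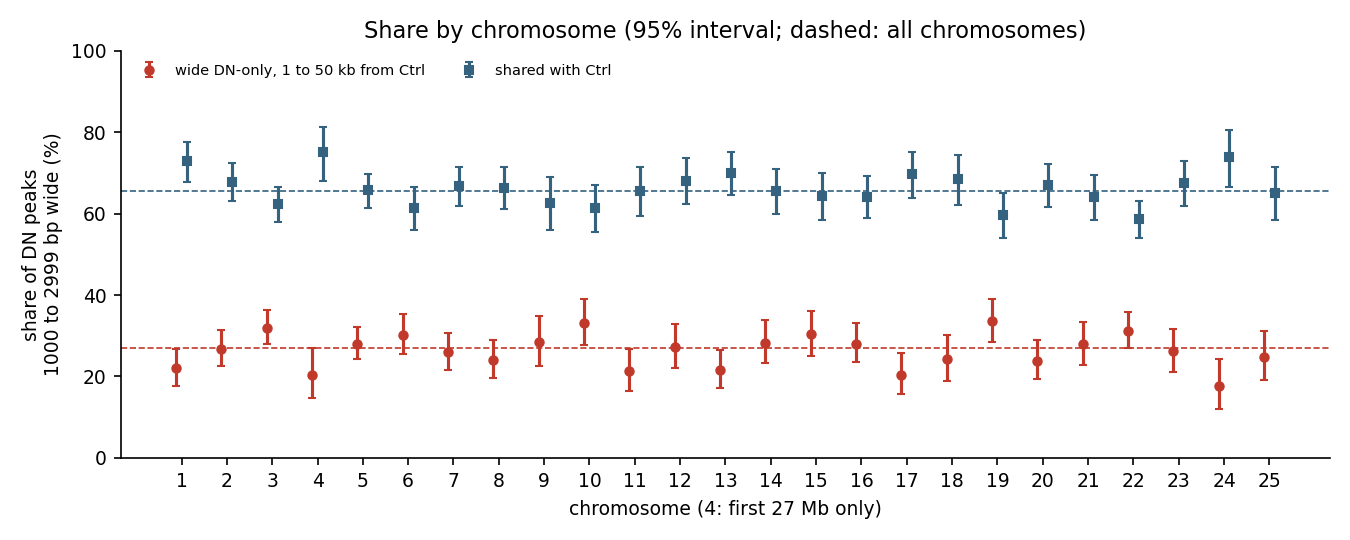
Share of DN peaks 1000 to under 3000 bp wide (y axis, percent) that were wide DN-only peaks 1 to 50 kb from Ctrl (red circles) or shared with Ctrl (blue squares) on each chromosome (x axis), with exact 95% intervals as bars and the share over all chromosomes dashed. The red shares ran from 17.6% on chromosome 24 to 33.6% on chromosome 19.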

How the data were processed

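Paired-end reads were trimmed by the authors (Trimmomatic 0.39), who kept unique STAR 2.7.8a alignments to GRCz11, removed duplicates with Picard 2.25.0, drew an equal number of read pairs per condition and called broad MACS2 peaks for each H3K4me3 library with a q setting of 0.0001, without a fragment model or local background. Whether input entered the call is not stated. Subsampling limits the effect of sequencing depth, and a call without local background can list regions that are high in input.

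The deposited lists give the position of each peak and region averages made by the caller: fold as a ratio to the genome-wide background, −log10 p and −log10 q of the p-value and q-value. The deposited score is 10 times −log10 q, rounded down. Fold and q-values were used only within their list. The lists hold no read counts. The paper gives the number of read pairs drawn per condition for the call, but the full depth of each library is unknown here.

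Gaps are the bases between 2 peaks, and overlap needed 1 bp. The steps were tested on simulated lists, and gaps and overlaps were the same in bedtools 2.31.1 for all 34889 DN peaks. Percentiles count ties at their mean rank. Intervals are Clopper-Pearson for shares and order statistics for medians (95%). Depth was worked out from the lowest listed fold and p and the slope between them, which the chosen solution met within 0.027% in DN and 0.016% in Ctrl, where depth appeared scaled by 0.914. Calculations used scipy 1.17.1, pandas 2.3.3 and numpy 2.4.6 under Python 3.11.15, and plots used matplotlib 3.10.9.

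Members and lists were chosen with earlier results of these data known. Named peaks are the 5 strongest, the 3 widest, those with the 3 smallest and 3 largest gaps, those next to the limits and the largest chain. No test was made with 1 library per group. Other filters, widths, gaps, rankings and distances were tried as alternatives. Genes, promoters and sequences planned for GRCz11 were not analysed here.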

Additional observations from a re-analysis of the deposited data

How the results depend on the processing

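Values outside the 95% interval of the reported share, ratio or median count as changed, as do numbers of peaks that differ by more than 1.5 times. Of 31 alternatives, 18 changed a value and 13 did not. The 4 filters on recovered depth were chosen after seeing the data. With both lists at a −log10 q of at least 4, 440 peaks met the rule, although only 208 members of the set reached that level. The others include DN peaks whose overlapping Ctrl peak fell below the limit. The number of members was 1018 with only as many DN peaks kept, strongest first, as Ctrl has. It was 3582 with the widths extended from 800 bp up to 4 kb and 1216 with a mean depth of 8 fragments or more. The median percentile of members was 22.3 when ranked among DN peaks of the same widths, 46.1, 54.4 and 60.5 in the 3 width classes, and 65.8 at that depth. The median gap was 162 kb to Ctrl peaks at a −log10 q of at least 4, 14.4 kb to the stronger 50% of Ctrl peaks, 8.64 kb to Ctrl peaks that overlap a DN peak and 7.45 kb from middle to middle. The share of members with a near neighbour was 12.5% at 5 kb, 33.3% at 25 kb, 76.3% for any DN-only peak, 17.9% with peaks under 1 kb apart merged (18.4% of shared peaks) and 10.4% at that depth. Several changes follow from the settings and say nothing further about the set. These are fewer members with a shorter DN list, more with broader widths, and longer gaps to fewer Ctrl peaks or between middles. The neighbour shares at 5 kb, at 25 kb and for any DN-only peak also follow from the settings, as does the higher percentile above a depth limit. The cause of other changes was not tested. No paired analysis was possible because DN and Ctrl have a single H3K4me3 library each, so leaving out a replicate was not possible either.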

Other observations

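Within 2 Mb of a chromosome start or of the last listed peak of a chromosome (on chromosome 4 of the start only), there were 286 members, which is 13.6% (95% interval 12.1 to 15.1). The share was 12.4% among shared peaks of the same widths (95% interval 11.5 to 13.4). Among the other DN-only peaks of these widths it was 17.4% under 1000 bp from Ctrl (95% interval 12.9 to 22.8) and 4.65% at least 50 kb from Ctrl (95% interval 2.68 to 7.44). The 49 DN-only peaks of 3000 bp or more at the same gaps ranked higher in the DN list than the members, with a median percentile of 63.7 (95% interval 60.4 to 67.8) against 49.7.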
